A study of Glycine max with 6 samples.

Results

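In soybean hairy roots, 72 of 56044 deposited gene models had a higher FPKM with a GmPHD6 overexpression construct and a lower FPKM with a GmPHD6 RNAi construct than in K599 control roots. Their level was on median 2.12 times control with overexpression and 26.0% of control with RNAi. FPKM is the number of sequenced fragments per kilobase of transcript, scaled to depth, so it can be compared between genes of different length. The genes were chosen on these same values. A gene had to carry an OK flag and a value above 0 in the 3 columns, which left 40400 genes, and at least 3 FPKM in its highest column. On the scale of log2(FPKM + 1), overexpression minus control had to be at least 0.8 and RNAi minus control at most -0.8. A stretch of chromosome 13 from 3083566 to 4226773 was left out beforehand, and with it 1 gene that met the thresholds. The differences of these genes are therefore a description and carry no test.

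The 6 libraries came from hairy roots of the soybean strain KF1, raised by injecting week-old seedlings with Agrobacterium rhizogenes. There were 2 libraries of roots that overexpress GmPHD6, 2 of roots with the GmPHD6 RNAi construct, and 2 labelled K599 and wild type as control. K599 is the bacterial strain that carried both constructs; whether the control strain carried an empty vector, and which promoter drove the constructs, are points on which the sources used here are silent. The labels do not say whether the roots of a library came from 1 plant or many. The authors gave 1 pooled value per group, so errors below are their confidence bounds. What the bounds stand for is not stated. They were read here as 2 standard deviations of counting error, without the spread between roots. In such bulk samples fewer cells of a type and less RNA per cell cannot be told apart. None of the deposited IDs matched the reference table of gene names, so the genes are called by their IDs, with no function given. For the same reason neither the level of GmPHD6 nor the root label could be checked against named genes.

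GmPHD6 belongs to the Alfin-like family of plant proteins, which end in a PHD finger. PHD fingers are small zinc-binding domains, many of which read the methylation state of histone tails. The founder of the family, Alfin1 of alfalfa, was described as a DNA-binding protein of roots that raises root growth and salt tolerance. In RNA interference, a hairpin transcript is cut into small RNAs that direct the destruction of matching mRNA. The submitters took genes higher with overexpression and lower with RNAi as lying downstream of GmPHD6, which is the pattern described here.

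Of the 25717 genes with at least 3 FPKM in a column outside the chromosome 13 stretch, called tested genes below, 1.78% were at least 0.8 higher with overexpression, 9.11% were at least 0.8 lower with RNAi, and 0.28% did both. The median gene stood at 0.02 for overexpression minus control and 0.07 for RNAi minus control. Among the 72 genes the overexpression difference ran from 0.80 to 1.79 with a median of 1.02, and the RNAi difference from -3.47 to -0.81 with a median of -1.37. The RNAi difference was the larger of the pair in 55 of the 72 genes. Over all tested genes RNAi differences were also the more spread, with quartiles at -0.27 and 0.37, against -0.16 and 0.20 with overexpression. With RNAi, 22 genes were at -2 or below, while 0 genes reached 2 with overexpression. The authors' bounds lay apart from those of control in both directions for 66 of the 72 genes, against 3.45% of tested genes. They lay above control for 67 genes with overexpression, against 14.4% of tested genes, and below control for 67 with RNAi, against 20.8%. These counts and shares, like the differences before them, rest on the columns that chose the genes, so nothing is read from them.

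**Figure D1:**
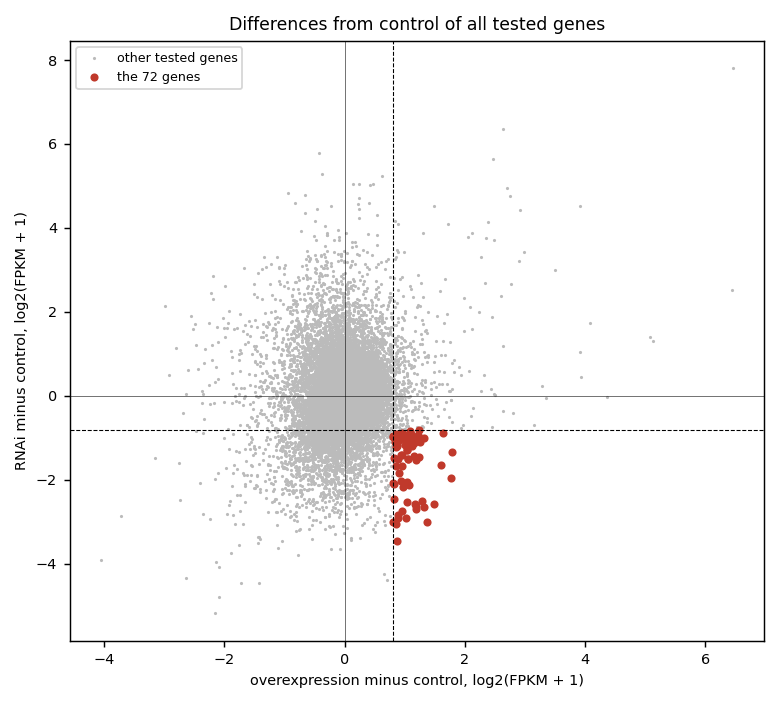
Overexpression minus control (horizontal) against RNAi minus control (vertical), both as differences of log2(FPKM + 1), for 25717 tested genes; dashed lines mark 0.8 and -0.8. The 72 genes (red) fill the lower right corner, with overexpression differences up to 1.79 and RNAi differences down to -3.47.

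The set was led, by the smaller of the 2 differences, by Glyma.10G224300 on chromosome 10 (45503641 to 45505214; coordinates as deposited, for the annotation Wm82.a2.v1 named in the IDs). It read 32.7 FPKM in overexpression roots (bounds 29.4 to 36.0), 1.53 with RNAi (0.810 to 2.25) and 8.85 in control (7.30 to 10.4). Its differences from control were 1.78 and -1.96, and no pair of bounds overlapped. Glyma.09G179700 on chromosome 9 (40465340 to 40466129) read 60.4 FPKM in overexpression roots (52.7 to 68.1), 5.50 with RNAi (3.23 to 7.77) and 19.3 in control (15.4 to 23.2). On the scale of log2(FPKM + 1) both genes stood about as far above control with overexpression as below it with RNAi. Without the offset, overexpression was 3.70 times control and control 5.79 times RNAi in Glyma.10G224300. For Glyma.09G179700 these ratios were 3.13 and 3.52. Glyma.13G301600 on chromosome 13 (39903117 to 39903837) had the highest overexpression difference of the set, 1.79, at 13.9 FPKM in overexpression roots (11.3 to 16.5), 0.713 with RNAi (0.150 to 1.28) and 3.32 in control (2.16 to 4.47). Glyma.12G048000 on chromosome 12 (3480507 to 3481344) read 11.6 FPKM in overexpression roots, 0.960 with RNAi and 4.37 in control. Glyma.15G085700 on chromosome 15 (6566626 to 6567297) read 23.2 FPKM in overexpression roots, 0.752 with RNAi and 8.86 in control. Glyma.20G129000 on chromosome 20 (37038317 to 37040153) read 37.4 FPKM in overexpression roots, 1.85 with RNAi and 16.1 in control.

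Some genes were nearly absent with RNAi. RNAi values lay under 1 FPKM in 20 of the 72 genes and under 10% of control in 10. Over all tested genes the median RNAi value was 106% of control. The rule asks for low RNAi values, so these 2 counts are partly built in and nothing is read from them. The lowest was Glyma.10G060800 on chromosome 10 (5656414 to 5658669), which read 20.3 FPKM in overexpression roots (18.2 to 22.4), 0.0242 with RNAi (0 to 0.0922) and 7.23 in control (6.10 to 8.35). The RNAi value was 0.335% of control and rested on a single fragment in the pair of RNAi libraries, so its ratio is loosely fixed. Next came Glyma.06G297600 at 6.75% of control, with 27.9 FPKM in overexpression roots, 0.895 with RNAi and 13.3 in control, and Glyma.06G051900 on chromosome 6 (3908171 to 3909900) at 6.79%, whose columns stood at 24.0 (overexpression), 0.614 (RNAi) and 9.03 FPKM (control). Glyma.07G098700 on chromosome 7 (9326144 to 9326851) read 18.5 FPKM in overexpression roots, 0.632 with RNAi and 8.45 in control. Glyma.20G100900 on chromosome 20 (34421931 to 34423966) read 33.5 FPKM in overexpression roots, 1.47 with RNAi and 18.6 in control. Overexpression was 1.80 to 2.80 times control in these 5 genes.

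**Figure D2:**
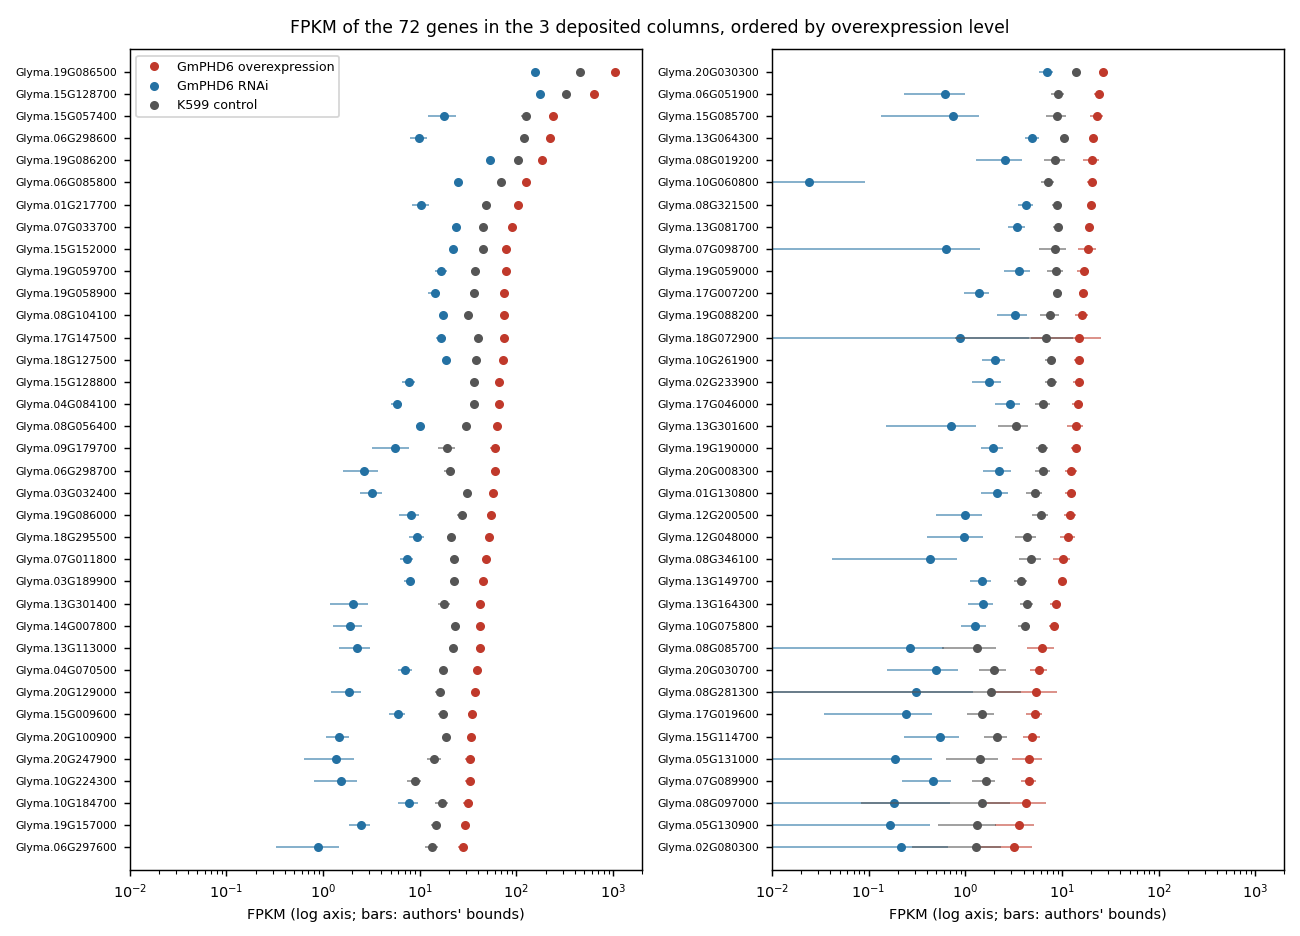
FPKM on a log axis of each of the 72 genes in the overexpression, RNAi and control columns, in order of the overexpression level from top left to bottom right; bars span the authors' bounds and are cut at the left edge where the lower bound is 0. The control points lie between the other two in every gene, and the distance to the RNAi points varies more between genes than the distance to the overexpression points.

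The genes covered a wide range of levels. Overexpression values ran from 3.18 to 1036 FPKM with a median of 27.1, beside medians of 2.37 with RNAi and 11.9 in control. The most abundant was Glyma.19G086500 on chromosome 19 (30721227 to 30722158) at 1036 FPKM in overexpression roots (1018 to 1055), 157 with RNAi (150 to 165) and 453 in control (442 to 465). Glyma.15G128700 on chromosome 15 (10263476 to 10266711) read 632 FPKM in overexpression roots (621 to 643), 176 with RNAi (171 to 182) and 326 in control (319 to 333). These 2 genes had differences of 1.19 and 0.95 with overexpression, and 0.63 and 0.59 after quantile normalization, which gives the 3 columns 1 shared distribution of values. Under that scaling both genes miss the overexpression threshold, while their RNAi differences are -1.97 and -1.33, against -1.52 and -0.88 as deposited. Genes of the chromosome 13 stretch were ranked along with the others in that scaling. In the overexpression column 19.3% of the FPKM sum came from the chromosome 13 stretch, against 2.28% in control. The part of the stretch in the scaled differences was not tested.

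Glyma.15G057400 on chromosome 15 (4428039 to 4428372) read 241 FPKM in overexpression roots (219 to 262), 17.8 with RNAi (12.1 to 23.5) and 124 in control (111 to 138). Glyma.06G298600 on chromosome 6 (48741425 to 48742170) read 220.2 FPKM in overexpression roots (211 to 229), 9.89 with RNAi (7.98 to 11.8) and 119 in control (113 to 126). Its RNAi difference of -3.47 was the lowest of the set. Glyma.06G085800 on chromosome 6 (6612659 to 6616547) read 125 FPKM in overexpression roots, 24.6 with RNAi and 69.7 in control. Summed over the 72 genes the level was 4545 FPKM in overexpression roots, 740.5 with RNAi and 2190 in control, that is 0.545%, 0.0982% and 0.324% of the columns. The 12 genes under 10 FPKM in overexpression roots had a median of 2.83 times control there, and the 7 genes of 100 FPKM or more 1.94 times. The offset of 1 in the log scale asks a larger fold of low genes, so this order is partly built in.

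The genes were shorter than most. Their gene models spanned 1432 bases of genome on median, introns included, against 3890 for all tested genes. Spans under 1 kb were found in 25 of the 72 genes (34.7%) and in 5.90% of tested genes. Spans over 5 kb were found in 2 of the 72 (2.78%) and in 34.8% of tested genes. Short models were also common among the 385 other genes at least 0.8 higher with overexpression, of which 30.1% spanned under 1 kb, with a median of 1781 bases. Among the 2271 other genes at least 0.8 lower with RNAi the share was 12.02% and the median 2677 bases. The control values rested on a median of 221 fragments per library in the 72 genes, 62.6 in the 385 genes and 253 in all tested genes. Span was not used to choose the genes; its part in the differences was not tested.

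**Figure D3:**
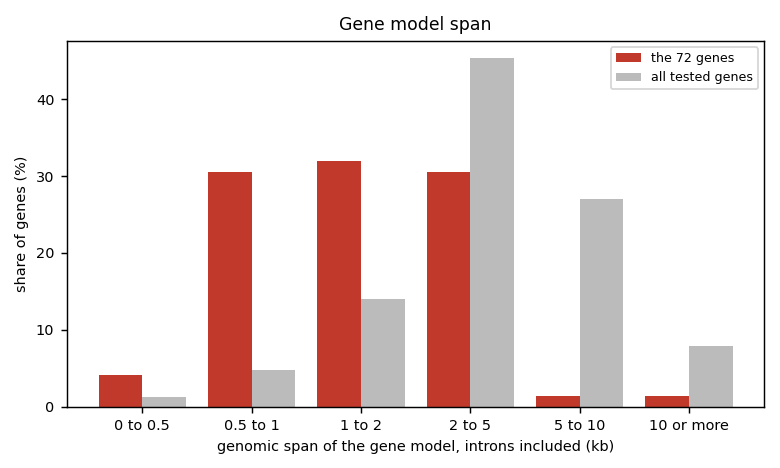
Share of genes (%) by genomic span of the gene model in kb, for the 72 genes (red) and all 25717 tested genes (grey). Spans of 0.5 to 1 kb hold 30.6% of the 72 genes and 4.70% of tested genes, and spans of 5 to 10 kb 1.39% and 27.0%.

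The genes lay on 18 of the 20 chromosomes. Chromosome 19 held the most, 9 of its 1236 tested genes or 0.728%, and chromosome 8 the next most, 8 of 1821 or 0.439%. By share, chromosome 15 with 0.573% and chromosome 20 with 0.535% stood between these. Chromosomes 11 and 16 held 0 of 1304 and 0 of 932 tested genes. Of the 72 genes, 16 lay within 100 kb of another, in 7 runs of 2 or 3. At 50 kb there were 13 such genes and at 500 kb 17.

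On chromosome 19 between 30653379 and 30722158, 3 of the 5 tested genes belonged to the set. Glyma.19G086000 read 54.0 FPKM in overexpression roots, 8.03 with RNAi and 27.6 in control, and Glyma.19G086200 read 184 FPKM, 53.6 FPKM and 105 FPKM, beside Glyma.19G086500 above. Their sum was 1274 FPKM in overexpression roots, 219 with RNAi and 586 in control. The other 2 tested genes had the same order of columns but each missed 1 threshold. Glyma.19G086100 read 142 FPKM in overexpression roots, 43.6 with RNAi and 68.7 in control, and its RNAi difference was -0.64. Glyma.19G086400 read 80.1 FPKM in overexpression roots, 27.7 with RNAi and 51.9 in control, and its overexpression difference was 0.62. The nearest tested genes outside, Glyma.19G085300 and Glyma.19G086600, had differences of 0.05 and 0.34 with overexpression and 0.45 and 0.44 with RNAi. These genes did not share the order of columns seen inside the run.

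On chromosome 6 between 48670559 and 48746297, 3 of 6 tested genes belonged to the set. Glyma.06G297600 stood at one end, and Glyma.06G298600 and Glyma.06G298700 lay side by side at the other. Glyma.06G298700 (48745550 to 48746297) read 59.6 FPKM in overexpression roots (54.5 to 64.8), 2.64 with RNAi (1.59 to 3.70) and 20.6 in control (17.9 to 23.3). The sum of the 3 genes was 308 FPKM in overexpression roots, 13.4 with RNAi and 153 in control. Close by, Glyma.06G297900, Glyma.06G298900 and Glyma.06G299000 had RNAi differences of -2.01, -2.55 and -2.16, and overexpression differences of 0.69, 0.27 and 0.67, under the threshold. Between them, Glyma.06G298100 and Glyma.06G298500 had RNAi differences of -0.06 and -0.21, so the low RNAi values did not cover every gene of the region.

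On chromosome 13 between 39894857 and 39903837, Glyma.13G301400 read 42.1 FPKM in overexpression roots (37.9 to 46.3), 2.06 with RNAi (1.18 to 2.94) and 18.0 in control (15.5 to 20.4), beside Glyma.13G301600. The next tested gene, Glyma.13G301700, was low with RNAi alone, at 6.996 FPKM in overexpression roots, 0.417 with RNAi and 5.24 in control. The one after, Glyma.13G301900, read 58.6 FPKM in overexpression roots, 3.24 with RNAi and 0.705 in control, which puts it above control with both constructs. Overexpression was the highest column in these 4 tested neighbours, and control the lowest in the last of them.

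**Figure D4:**
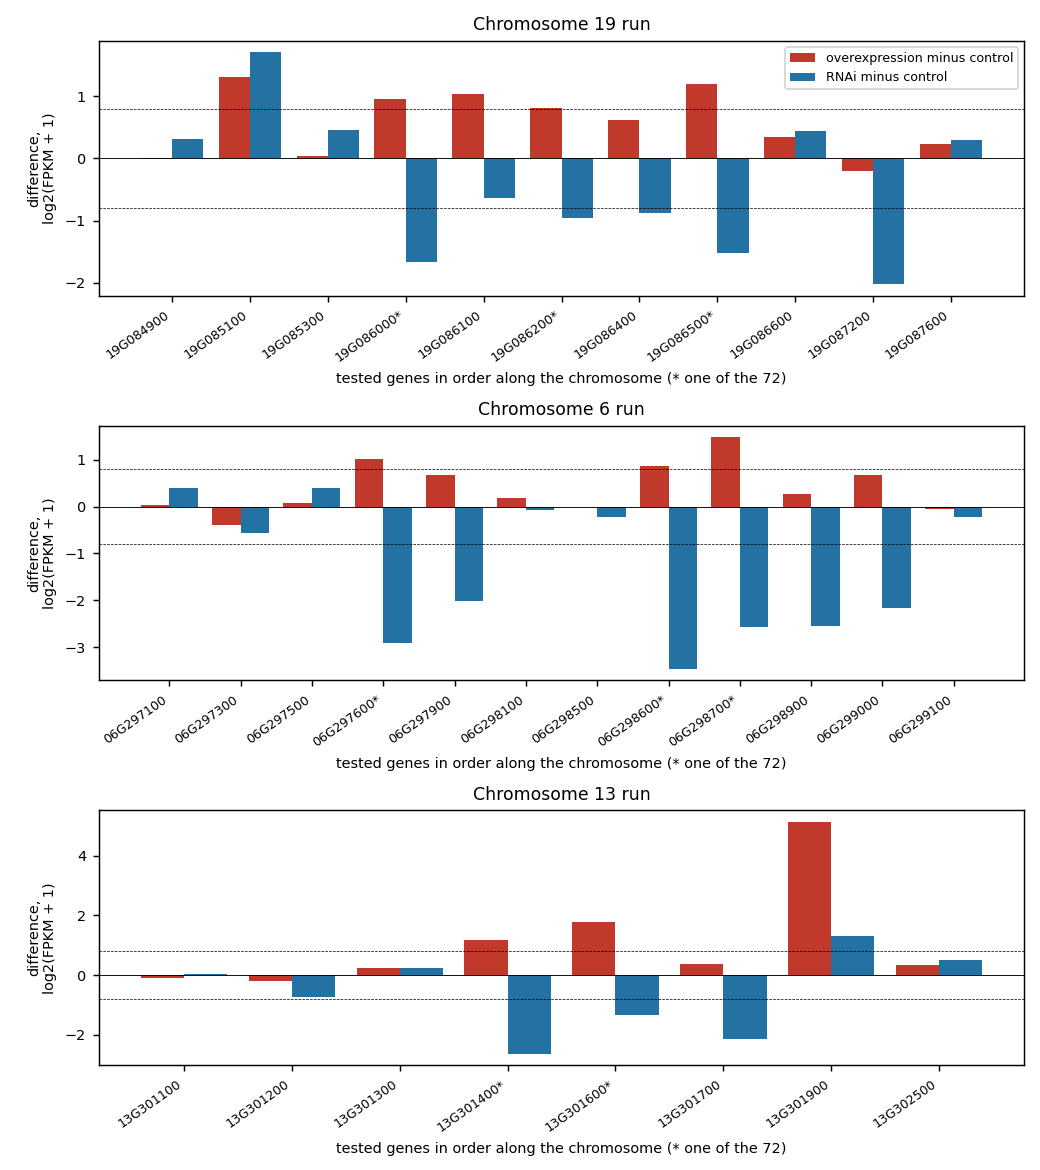
Overexpression minus control (red) and RNAi minus control (blue), as differences of log2(FPKM + 1), for the tested genes of 3 runs and the 3 tested genes on either side, in their order along the chromosome; asterisks mark genes of the set and dashed lines 0.8 and -0.8. In the chromosome 19 run the 5 tested genes are above control with overexpression and below it with RNAi, from 0.62 to 1.19 and from -1.66 to -0.64.

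The other 4 runs were pairs. On chromosome 15, Glyma.15G128800 (10275870 to 10278232) read 65.9 FPKM in overexpression roots, 7.78 with RNAi and 36.7 in control, next to the far more abundant Glyma.15G128700. On chromosome 19, Glyma.19G058900 (11368605 to 11369660) read 75.2 FPKM in overexpression roots, 14.3 with RNAi and 36.1 in control, and Glyma.19G059000 (11390974 to 11391970) 16.8 FPKM, 3.56 FPKM and 8.61 FPKM. Another gene of the set, Glyma.19G059700, lay within 500 kb of them at 77.6 FPKM, 16.7 FPKM and 37.0 FPKM. The ratio of overexpression to control was 2.08, 1.95 and 2.10 in these 3 genes. Over the 72 genes it had a median of 2.12 and quartiles of 1.95 and 2.45. The rule selects on this difference, so nothing is read from the likeness.

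On chromosome 20, Glyma.20G030300 (3660496 to 3662067) read 26.4 FPKM in overexpression roots, 6.94 with RNAi and 14.1 in control, and Glyma.20G030700 (3726794 to 3727998) 5.85 FPKM, 0.492 FPKM and 2.00 FPKM. The tested gene between them, Glyma.20G030600, met neither threshold, at 44.3 FPKM, 35.1 FPKM and 47.1 FPKM. On chromosome 5 the pair was of low level, Glyma.05G130900 (32401710 to 32402477) at 3.58 FPKM in overexpression roots, 0.165 with RNAi and 1.31 in control, and Glyma.05G131000 (32406455 to 32407529) at 4.61 FPKM, 0.187 FPKM and 1.41 FPKM. Whether neighbours of a run share fragments, as near-identical copies can, was not looked for, so the split of fragments between them is uncertain.

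The nearest tested genes on either side of the 72 genes, leaving out genes of the set, numbered 131. Of these, 13 (9.92%) were at least 0.8 higher with overexpression, against 1.78% of all tested genes, and 21 (16.0%) at least 0.8 lower with RNAi, against 9.11%. In the opposite directions, 2 (1.53%) were at least 0.8 lower with overexpression, against 2.98%, and 9 (6.87%) at least 0.8 higher with RNAi, against 9.35%. Their median differences were 0.11 and -0.05, beside 0.02 and 0.07 for all tested genes. At the fifth tested gene to either side, genes of the set included, the shares higher with overexpression were 1.39% and 2.78%, and those lower with RNAi 12.5% and 8.33%. At the fourth they were 5.56% and 4.17% with overexpression and 16.7% on both sides with RNAi. At the third they were 6.94% and 2.78% with overexpression and 8.33% and 15.3% with RNAi. At the second they were 11.1% and 6.94% with overexpression and 15.3% and 12.5% with RNAi. At the nearest, counted in this way, they were 18.1% and 15.3% with overexpression and 20.8% and 23.6% with RNAi. These are counts without a test.

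The 2 libraries of a group are called A and B below, and which is replicate 1 is not known. For genes with few fragments, the width of the bounds, read as counting error, gave back whole fragments of each library. This worked for 23 of the 72 genes in the RNAi column, 6 in control and 4 with overexpression, since most values rest on too many fragments. The 2 RNAi libraries often differed. Glyma.10G224300, first in the set, had 35 and 2 fragments in RNAi libraries A and B, or 2.89 and 0.170 FPKM. Glyma.20G247900 on chromosome 20 (47733500 to 47734366), at 33.4 FPKM in overexpression roots, 1.36 with RNAi and 14.2 in control, had 29 and 0. Glyma.09G179700 had 16 and 31, or 3.66 and 7.34 FPKM. For these 3 genes each RNAi library was nevertheless below the lower bound of the control column.

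Other genes were even between the RNAi libraries: Glyma.06G297600 had 10 and 10 fragments, Glyma.20G030700 had 9 and 8, and Glyma.06G051900 had 12 and 9. Of 14 genes of the set with at least 5 fragments on average, 7 differed by a factor of at least 2 between the RNAi libraries, a library at 0 included (50%), against 32.4% of 451 tested genes. Library A was the higher one in 11 of the 14, against 54.3% of the tested genes. Over all 23 genes recovered in RNAi it was the higher one in 14 (60.9%), against 52.8% of 627 tested genes.

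**Figure D5:**
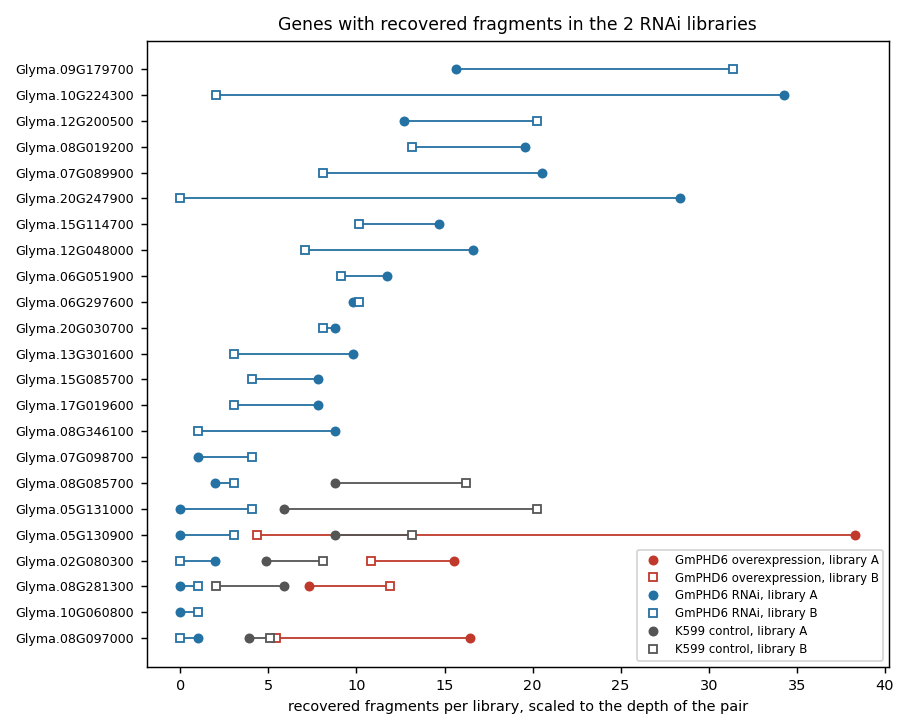
Recovered fragments per library, scaled to the mean depth of each pair, for the 23 genes recovered in RNAi; filled circles are library A and open squares library B of overexpression (red), RNAi (blue) and control (grey), joined by a line. The RNAi libraries lie close for Glyma.06G297600 and far apart for Glyma.10G224300 and Glyma.20G247900; 1 fragment stands for 1.21 times as much FPKM in overexpression roots, and 1.13 times with RNAi, as in control.

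In 4 genes, all of low level, the 6 libraries could be read. Glyma.08G281300 on chromosome 8 had 8 and 11 fragments with overexpression, 0 and 1 with RNAi and 6 and 2 in control. Glyma.02G080300 on chromosome 2 had 17 and 10, 2 and 0, and 5 and 8 in the same order. Glyma.08G097000 on chromosome 8 had 18 and 5, 1 and 0, and 4 and 5. In FPKM, these 3 genes had both overexpression libraries above both control libraries and both RNAi libraries below them. Glyma.05G130900 did not: with 42 and 4 fragments with overexpression it read 6.43 and 0.728 FPKM, against 1.05 and 1.57 FPKM in the control libraries. Its RNAi libraries held 0 and 3 fragments.

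Separation of the overexpression libraries was thus seen in 3 of 4 genes, against 17.3% of 439 tested genes recovered in both columns. Both RNAi libraries were below both control libraries in 6 of 6 genes, against 20.9% of 330. The genes had been chosen on the means of these libraries, so the higher shares are partly built in and nothing is read from them. Without overexpression library A, 1 of the 4 genes still met both thresholds, and Glyma.05G130900 stood at -0.42 for overexpression minus control. Without control library A or B, 2 of the 4 met them.

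The 6 genes whose bounds overlapped control in at least 1 direction were the 4 just named, Glyma.08G085700 and Glyma.18G072900. Glyma.08G085700 on chromosome 8 (6460689 to 6461360) read 6.27 FPKM in overexpression roots (4.34 to 8.20), 0.269 with RNAi (0 to 0.609) and 1.33 in control (0.579 to 2.09), and overlapped control with RNAi alone. Glyma.18G072900 on chromosome 18 (6873416 to 6878947) read 15.0 FPKM in overexpression roots (4.78 to 25.3), 0.891 with RNAi (0 to 4.53) and 6.82 in control (0.786 to 12.8). It shares its locus with another gene model, as does Glyma.13G064300, so the split of fragments in these 2 genes is uncertain.

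In a few genes FPKM and fragments did not move together. FPKM per fragment, against control and centred on the median tested gene, shifted by over 0.2 in log2 in 4 genes with overexpression (5.56%). With RNAi it did so in 6 genes (8.33%). Over all tested genes the shares were larger, 16.3% and 15.3%. Glyma.08G056400 on chromosome 8 (4330054 to 4332640) read 63.1 FPKM in overexpression roots (60.3 to 65.9), 9.94 with RNAi (9.07 to 10.8) and 29.7 in control (28.4 to 31.1). The fragments behind these values, computed from the bounds, were 2032, 516 and 1829 per library. With fragments in place of FPKM its overexpression difference was 0.42 and not 1.06, while the RNAi difference was -1.55 beside -1.49. Among the overexpression differences the next in size was that of Glyma.19G157000 on chromosome 19 (41763615 to 41774896), at 0.69 and not 0.97. The RNAi difference of Glyma.18G072900 was -2.52 with fragments beside -2.05 with FPKM, on a computed 0.239 fragments per RNAi library. A single whole fragment would give 0.489 or 0.506, so the reading of the bounds as whole fragments fails for this gene. With fragments 63 of the 72 genes met the rule, and 27 others joined them.

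Just inside the overexpression threshold were Glyma.19G086200, Glyma.15G152000 and Glyma.17G007200, at 0.8025, 0.8031 and 0.8094. Just outside were Glyma.08G195000, Glyma.01G048400 and Glyma.10G288100, at 0.7996, 0.7972 and 0.7963. Just inside the RNAi threshold were Glyma.08G104100, Glyma.07G089900 and Glyma.08G085700, at -0.81, -0.84 and -0.88, and just outside Glyma.08G285400, Glyma.10G008000 and Glyma.08G295500, at -0.80, -0.79 and -0.79. The lowest highest-column values inside were 3.18, 3.58 and 4.24 FPKM, and 0 genes under 3 FPKM met both differences. Both differences together already ask for a highest column well above 0. The last count is thus partly built in, as is the lack of effect of a lower minimum.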

How the data were processed

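The authors deposited FPKM values with lower and upper bounds for 3 pooled columns, 1 per group of 2 libraries, per the file headers. The column labelled G6 was read as GmPHD6 overexpression. TopHat is named in the submitters' processing notes, without a version; which tool made the FPKM, what the bounds stand for and whether strand was used is not given in the sources used here. Depth was 14636610, 15319043 and 15201221 fragments per library for overexpression, RNAi and control, computed by taking the bounds as 2 standard deviations of counting error.

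Whole fragments per library were recovered where a computed value under 40 matched 1 sum of 2 step sizes within its rounding error and chance would match under 0.05. This placed 55.5%, 56.6% and 58.2% of such values, against 0.315%, 0.670% and 0.649% of values moved off by a random amount. Of values simulated under the same reading of the bounds, 85.7%, 83.4% and 84.2% were placed, and 100% of those were right. The simulation drew whole fragments only. Deposited values were placed less often than simulated ones, and the reason was not tested. The simulation checks the matching and cannot check that reading, since it was built on it. Neither limma nor another test was run, since the columns are pooled and the genes were chosen on them. The reference table Glycine_max_v4.0 matched 0 IDs, so motif, marker and function lists were not used. Members and lists were chosen with earlier results of these data known. Genes are named by rank in the smaller difference (12), overexpression level (6) and lowest RNAi share (6), by neighbours within 100 kb and by closeness to a threshold; others were named after their values were seen. Python 3.11.15 with pandas 2.3.3 was used.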

Additional observations from a re-analysis of the deposited data

How the results depend on the processing

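The set of 72 genes held between 66 and 96 genes with an offset of 0.5, a minimum of 1 or 5 FPKM, genes listed at 0 kept, bounds without overlap, quantile normalization and centring on the median, and, chosen after seeing the data, with fragments in place of FPKM or shared loci left out. With an offset of 0.1, which by construction widens differences of low genes, it held 122, and with differences of at least 1 it held 31. The median differences, 1.02 and -1.37, ran from 0.97 to 1.08 with overexpression and from -1.81 to -1.36 with RNAi over 5 settings of offset, scaling and measure. Across 720 differences of the 72 genes under these 5 settings, 0 turned sign and 17 moved by over 1.5 times: 13 with the offset of 0.1, 3 after quantile normalization and 1, the overexpression difference of Glyma.08G056400, with fragments. A change of offset cannot turn a sign, and the rule kept only differences far from 0. The lack of turned signs is thus largely built in, and nothing is read from it. Of the 4 genes with a value in each library, between 1 and 4 met the rule when 1 library was left out; Glyma.05G130900 stood at -0.42 for overexpression minus control without overexpression library A and at 1.69 without library B. No paired analysis was possible because the deposited columns pool the 2 libraries of a group and carry no replicate number. Promoter motifs were not run, as no promoter sequence matched. Counting error weighs most on the RNAi values: in these genes, chosen as low with RNAi, their median rested on 45.2 fragments per library, against 221 in control, beside 229 and 253 over all tested genes.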
